A study of Mus musculus with 12 samples.

Results

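A set of 9 genes for acute-phase proteins, several of which fat is known to secrete, was examined. The tissue was epididymal white adipose tissue (eWAT, a visceral fat pad) of C57BL/6 mice. The genes were chosen by symbol: the serum amyloids Saa1, Saa2 and Saa3, the orosomucoids Orm1, Orm2 and Orm3, haptoglobin (Hp), lipocalin 2 (Lcn2) and the serine protease inhibitor Serpina3n. All 9 were present among the 25229 genes with a symbol, and 7 were among the 15597 genes tested. Saa1 and Saa2 stayed below the level filter. The 12 RNA-seq libraries came from 4 groups of 3 biological replicates: wild-type mice on normal diet (ND_WT), mice labelled TET KO on normal diet (ND_TKO), wild-type mice on high-fat diet (HFD_WT) and mice labelled TET KO on high-fat diet (HFD_TKO). TET enzymes oxidise methylated cytosine in DNA, and the series title places their loss in adipocytes. The Cre driver, the deleted exons, and the age and sex of the mice are not given in the sources used here, nor is the duration or composition of the diets. Whole tissue was sequenced, so a value averages over all cells of the pad.

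Acute-phase proteins are secreted proteins whose synthesis changes with inflammation. In the liver they are induced by interleukin 6, interleukin 1 and tumour necrosis factor through STAT3, NF-kB and C/EBP factors, and many of them are made in adipose tissue as well. Serum amyloids are small apolipoproteins of high-density lipoprotein, orosomucoids are lipid- and drug-binding plasma glycoproteins, haptoglobin captures free haemoglobin, and lipocalin 2 binds bacterial siderophores. Serpina3n is a mouse member of the expanded antichymotrypsin family and inhibits serine proteases such as granzyme B.

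The orosomucoid genes lie next to each other on chromosome 4 of mm10, all on the plus strand: Orm1 at 63344560 to 63348163, Orm3 at 63356162 to 63359511 and Orm2 at 63362449 to 63365878. The serum amyloid genes lie on chromosome 7, with Saa3 at 46711998 to 46715700 and Saa1 at 46740497 to 46742980 on the minus strand and Saa2 at 46751790 to 46754313 on the plus strand. Hp is on chromosome 8 (109575128 to 109579172, minus strand), Lcn2 on chromosome 2 (32384633 to 32388252, minus strand) and Serpina3n on chromosome 12 (104406729 to 104414329, plus strand). No other gene of the GENCODE M21 annotation overlapped any of them. Within the families the transcripts are similar. Orm1 and Orm2 were identical over 91.0% of aligned bases, Orm2 and Orm3 over 88.5%, Orm1 and Orm3 over 86.5%, Saa1 and Saa2 over 94.4%, and Saa1 and Saa3 over 69.9%. Of all 50-base windows of the transcript, 20.4% in Orm1 and 22.7% in Orm2 also occurred in another gene, against 3.59% in Orm3, 1.78% in Saa3, 6.90% in Serpina3n and 0% in Hp and Lcn2. The treatment of reads that match several genes is not given in the sources used here, so values of Orm1 and Orm2 in particular may hold some of each other's reads.

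Because the neighbouring Orm3 and Orm2 followed different courses on high-fat diet, the bases before their transcription start are shown, with those of Saa3, the serum amyloid that fat expressed. Each run holds the 250 bases upstream of the start given by RefSeq (GRCm38.p6), 5' to 3' on the gene's strand: chr4:63355908-63356157 (plus strand) for Orm3, chr4:63362199-63362448 (plus strand) for Orm2 and chr7:46715677-46715926 (minus strand) for Saa3. Capitals mark letters that match the C/EBP-type motif TTGCNNAA on either strand or the TATA box TATAAA.
Orm3: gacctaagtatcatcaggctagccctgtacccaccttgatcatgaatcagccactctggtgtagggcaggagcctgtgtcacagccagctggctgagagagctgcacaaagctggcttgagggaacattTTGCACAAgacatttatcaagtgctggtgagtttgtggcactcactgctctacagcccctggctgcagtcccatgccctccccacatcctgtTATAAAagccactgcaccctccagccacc
Orm2: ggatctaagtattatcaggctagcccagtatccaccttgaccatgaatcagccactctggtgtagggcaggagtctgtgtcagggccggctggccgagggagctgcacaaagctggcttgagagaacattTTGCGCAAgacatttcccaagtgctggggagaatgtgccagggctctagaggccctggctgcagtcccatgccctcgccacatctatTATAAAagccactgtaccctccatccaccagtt
Saa3: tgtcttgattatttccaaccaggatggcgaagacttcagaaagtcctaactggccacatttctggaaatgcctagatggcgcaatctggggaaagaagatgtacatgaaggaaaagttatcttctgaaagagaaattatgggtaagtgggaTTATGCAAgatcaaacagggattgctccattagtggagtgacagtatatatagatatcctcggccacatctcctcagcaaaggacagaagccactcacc
The Orm3 and Orm2 windows, including 50 bases after the start, were identical over 89.2% of aligned bases. Both hold a C/EBP-type match, at 121 bases before the start in Orm3 and at 120 bases in Orm2, and both hold TATAAA, at 29 and 33 bases before the start. The Orm2 match, TTGCGCAA, reads the same on both strands. The Saa3 match lies 99 bases before the start, on the opposite strand. RefSeq windows of 300 bases were present for 7 of the 9 genes (not for Orm1 and Hp). A C/EBP-type match was found in 6 of these 7, all but Serpina3n, against 10.8% of all 32817 promoter windows, although the Saa1 and Saa2 windows were identical over 96.0% of aligned bases, so that these 6 are not separate sequences, and the Lcn2 window lies inside the gene as GENCODE draws it. TATAAA was present in 2 of the 7 (13.6% of all windows). The STAT motif TTCNNNGAA and the NF-kB motif were found in 0 of the 7, against 8.29% and 8.46% of all windows.

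Library totals lay between 20973140 and 25606629 reads, so that 3 reads, the limit that a count of 0 allows, corresponded to 0.117 to 0.143 CPM (reads of a gene scaled so that every library has the same total; the limit covers counting error only). Tet1 ranged over 0.415 to 1.48 CPM in ND_WT, over 2.22 to 2.98 CPM in ND_TKO, over 0.841 to 0.996 CPM in HFD_WT and over 1.65 to 3.07 CPM in HFD_TKO. None of the 3 TET genes was called lower in TKO on either diet, and Tet1 was called higher on both. The call on ND was lost without ND_WT replicate 2 (adjusted p = 0.064) or ND_TKO replicate 1 (0.062) or 3 (0.076). As the deleted exons are not given, reads over whole genes do not check the labels, and directions below refer to the libraries labelled TKO. The adipocyte marker Adipoq stood at 1349 to 6448 CPM in all libraries, as fits the labelled tissue. HFD_TKO replicate 1 stood apart from its group, with a score of 44.2 on the second principal component against 18.5 and 26.2. Its summed mesothelium marker level was 43.8 CPM against 220 and 189, and calls that it changed are given with and without it. ND_WT replicate 3 also stood apart from its group, at -6.21 on that component against -32.0 and -32.6. It was the highest of ND_WT for Orm1, Orm2, Orm3, Hp and Serpina3n.

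In lean wild-type fat Hp was the most abundant of the 9 transcripts by a wide margin. Per kilobase of transcript, mean levels in ND_WT were 2001 CPM for Hp, 340 for Orm1, 234 for Serpina3n, 43.3 for Orm3, 15.4 for Saa3, 14.7 for Orm2 and 11.6 for Lcn2. The last 3 did not differ beyond their spread, and the ranges of Orm1 and Serpina3n per library were broad as well. Summed over the 9 genes the level was 3175 to 3941 CPM in ND_WT, and 5961 to 6875 CPM in HFD_WT. In HFD_WT the order per kilobase was Hp (4206), Serpina3n (272), Orm1 (185), Saa3 (89.9), Lcn2 (26.2), Orm2 (9.51) and Orm3 (0.764). Orm3 thus moved from the fourth place to the last of the 7 tested genes. Saa1 and Saa2, the forms of the liver and of plasma, were nearly absent: no library exceeded 0.620 CPM for Saa1 or 0.605 CPM for Saa2. Reads summed over the 3 libraries of a group were 7 (ND_WT), 10 (ND_TKO), 27 (HFD_WT) and 10 (HFD_TKO) for Saa1, and 1, 10, 20 and 18 in the same order for Saa2.

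**Figure D1:**
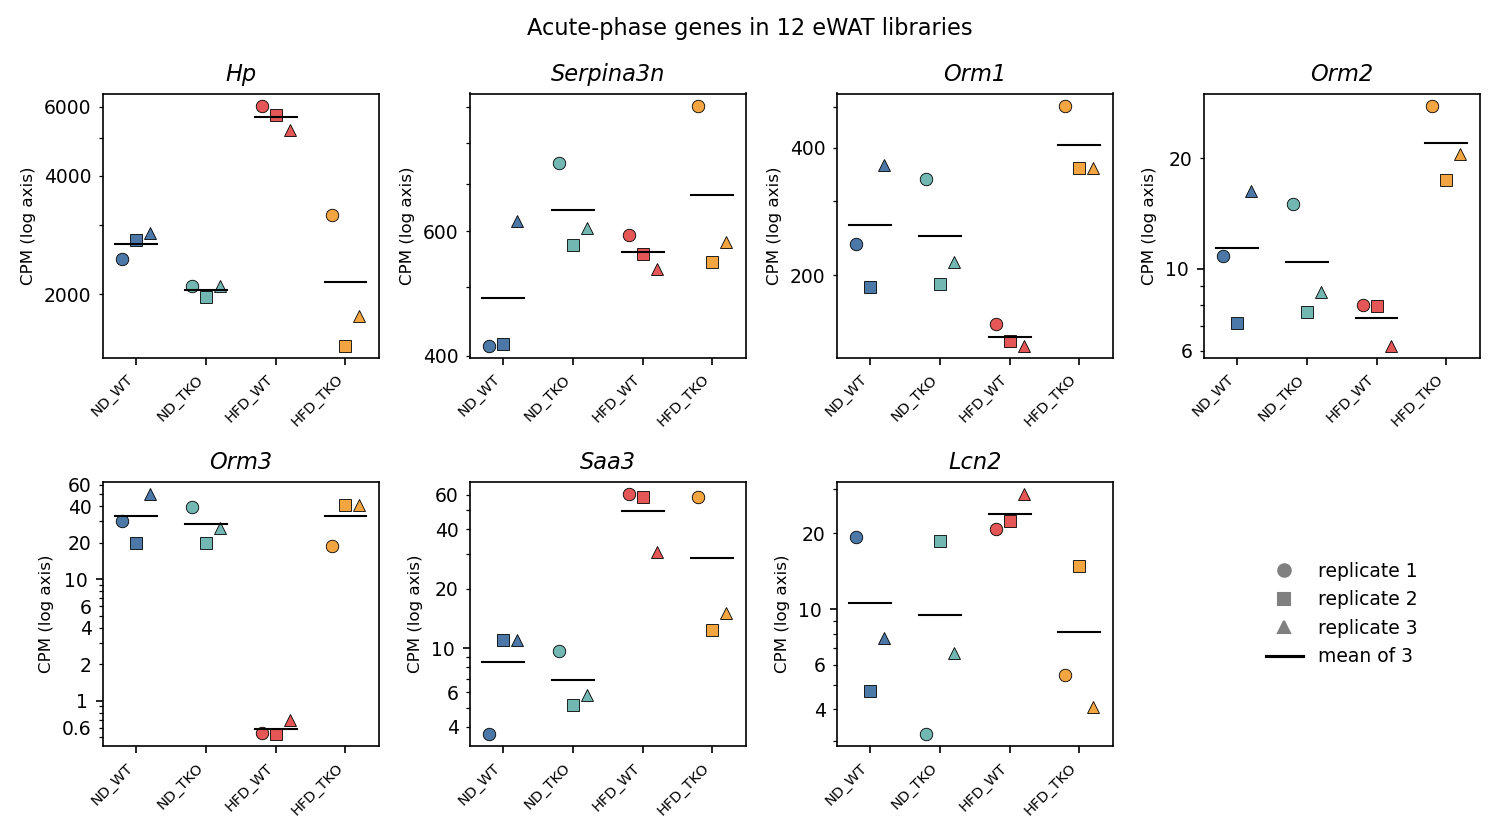
Level of the 7 tested genes in each of the 12 eWAT libraries, in CPM on a log axis, with 1 panel per gene. Symbols mark the replicate number and horizontal bars the mean of 3 libraries. Orm3 is near 0.6 CPM in the HFD_WT libraries and at least 18.7 CPM in all others, while Hp is at 5227 to 6038 CPM in HFD_WT and at most 3187 CPM elsewhere.

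The diet comparison in wild-type mice set high-fat feeding against normal diet. Saa3 and Hp rose, and Orm3 and Orm1 fell. This was 4 of the 7 tested genes, with 2 in each direction, when 58.1% of all tested genes were called (37.8% higher and 20.3% lower, or 29.2% and 28.2% with TMM scaling). The groups did not overlap in 5 of the 7, against 65.4% of all genes. The median change was 0.24 on the log2 scale, against 0.13 over all tested genes. The share called was close to that of all genes. All changes are differences of log2(CPM + 1) between group means, which understate the change of low genes, with adjusted p-values from limma.

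Orm3 showed the widest difference of the 9. It read 30.1, 20.0 and 50.4 CPM in ND_WT and 0.547, 0.531 and 0.693 CPM in HFD_WT, where these values rest on 14, 12 and 16 reads. No HFD_WT library came near the ND_WT range. The mean fell from 33.5 ± 15.5 to 0.590 ± 0.0890 CPM (SD, n = 3), a ratio of 56.7, with a log2 change of -4.34 (SE 0.35, limma adjusted p = 9.1e-07). Orm1, the most abundant orosomucoid, read 237, 188 and 365 CPM in ND_WT and 153, 140 and 137 CPM in HFD_WT. These groups did not overlap either, but the fall was smaller, 1.84-fold in the means (log2 change -0.82, SE 0.25, adjusted p = 0.013). Orm2 read 10.9, 7.14 and 16.2 CPM in ND_WT and 8.01, 7.92 and 6.19 CPM in HFD_WT, with overlapping groups. Its log2 change of -0.51 (95% confidence interval -1.13 to 0.11) had an adjusted p of 0.14, against 0.033 with DESeq2 and 0.032 without ND_WT replicate 2.

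Hp went the other way. It read 2460, 2743 and 2870 CPM in ND_WT and 6038, 5705 and 5227 CPM in HFD_WT, so that every HFD_WT library was above every ND_WT library. The mean rose 2.10-fold from 2691 ± 210 to 5657 ± 408 CPM (log2 change 1.07, SE 0.22, adjusted p = 0.0014). Saa3 had the largest relative rise, from 3.67, 11.0 and 11.0 CPM to 60.5, 58.5 and 30.7 CPM, a 5.83-fold difference of means (log2 change 2.48, SE 0.53, adjusted p = 0.0018). Lcn2 read 19.4, 4.75 and 7.67 CPM in ND_WT and 20.8, 22.4 and 28.7 CPM in HFD_WT. Its groups did not overlap, but ND_WT replicate 1 lay just below the HFD_WT range, and the log2 change of 1.30 (interval 0.03 to 2.57) had an adjusted p of 0.074. Without ND_WT replicate 1 it was 1.81 (adjusted p = 0.023), and without ND_TKO replicate 2, which changes only the shared spread, its adjusted p was 0.041. With only the WT groups fitted it was 0.033. Serpina3n showed no detectable change, with 413, 416 and 620 CPM in ND_WT, 593, 557 and 531 CPM in HFD_WT and a log2 change of 0.24 (interval -0.20 to 0.68, adjusted p = 0.32).

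**Figure D2:**
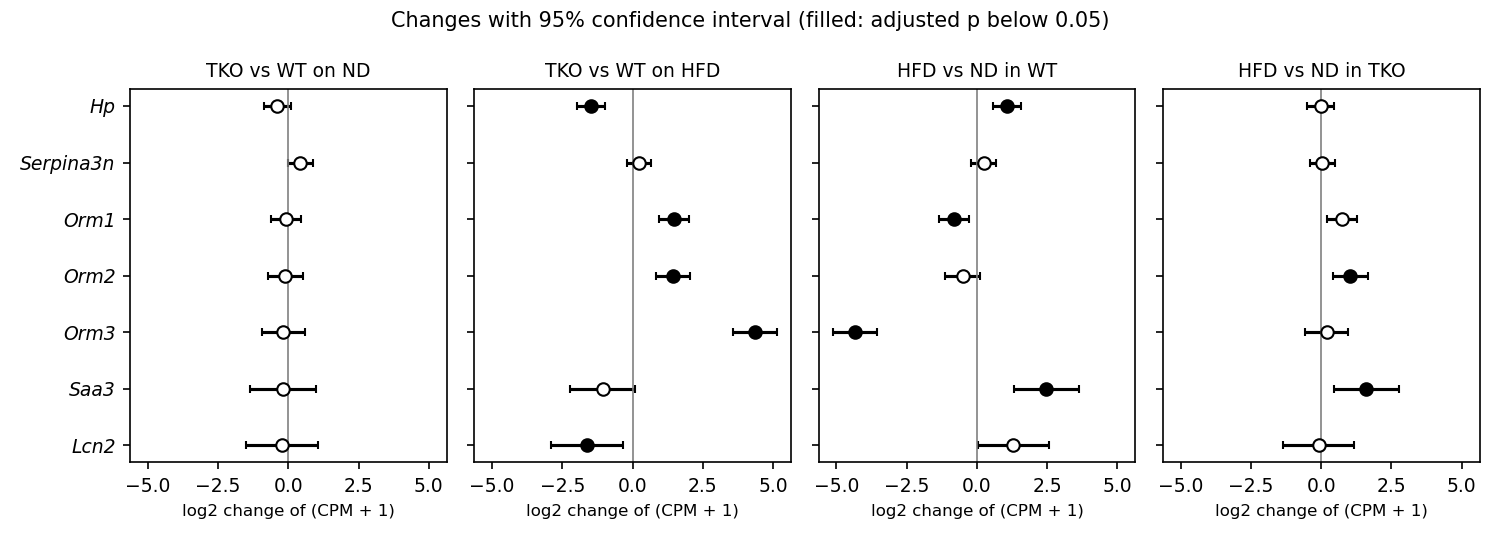
Log2 change of CPM + 1 for the 7 tested genes in 4 comparisons, with 95% confidence intervals from limma. Filled points have an adjusted p below 0.05. Orm3 changed by -4.34 with diet in WT and by 4.36 with TKO on HFD, and no point is filled for TKO against WT on ND.

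The next comparison set the libraries labelled TKO against WT under high-fat feeding. All 3 orosomucoids rose, and Hp and Lcn2 fell. These 5 of 7 tested genes compare with 46.7% of all tested genes called (15.2% higher and 31.6% lower, or 22.7% and 24.7% with TMM scaling). The groups did not overlap in 5 of the 7, against 59.6% of all genes, and the median log2 change was 0.23, against -0.10 over all genes. This comparison and the diet comparison in WT share the 3 HFD_WT libraries, so an opposite sign in them is not independent evidence.

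Orm3 read 18.7, 40.9 and 40.9 CPM in HFD_TKO, each far above the HFD_WT values of about 0.6 CPM. The means differed 56.7-fold (HFD_TKO mean 33.5 ± 12.9 CPM; log2 change 4.36, SE 0.35, adjusted p = 1.6e-06). Orm1 read 504, 359 and 359 CPM in HFD_TKO, and the mean was 2.84-fold that of HFD_WT (407 ± 83.3 against 143 ± 8.80 CPM, log2 change 1.48, SE 0.25, adjusted p = 3.9e-04). Orm2, at 27.8, 17.5 and 20.6 CPM, was 2.98-fold higher (log2 change 1.44, SE 0.28, adjusted p = 0.0013). In all 3 orosomucoids the lowest HFD_TKO library was above the highest HFD_WT library.

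Hp read 3187, 1482 and 1764 CPM in HFD_TKO, and every value was below the HFD_WT range. The mean was 2.64-fold lower (2144 ± 914 against 5657 ± 408 CPM, log2 change -1.48, SE 0.22, adjusted p = 1.9e-04). Lcn2 read 5.49, 14.8 and 4.07 CPM in HFD_TKO, all below its HFD_WT values of 20.8 to 28.7 CPM. Its log2 change of -1.62 (SE 0.58, adjusted p = 0.038) was a weak call, since it was lost with edgeR (adjusted p = 0.078), with DESeq2 (0.095) and without the level filter (0.062). It was also lost without HFD_WT replicate 1 (adjusted p = 0.068), 2 (0.074) or 3 (0.10), without HFD_TKO replicate 1 (0.10) or 3 (0.14), and without ND_TKO replicate 3 (0.051). Saa3 depended on a single library. It read 58.1, 12.3 and 15.2 CPM in HFD_TKO against 60.5, 58.5 and 30.7 CPM in HFD_WT, so that replicate 1 sat at the wild-type level and the others below it. With all libraries the log2 change was -1.06 (interval -2.23 to 0.10, adjusted p = 0.12), and without HFD_TKO replicate 1 it was -1.73 (adjusted p = 0.0068). Serpina3n, at 905, 544 and 580 CPM, gave a log2 change of 0.23 (interval -0.20 to 0.67, adjusted p = 0.37), and 0.0029 without HFD_TKO replicate 1 (adjusted p = 0.99).

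HFD_TKO replicate 1 was the highest of its group for Hp, Serpina3n, Orm1, Orm2 and Saa3 and the lowest for Orm3. The summed level of the 9 genes was 4707 CPM in it, against 2470 and 2784 CPM in the other HFD_TKO libraries. Without it, the calls for Orm1, Orm2, Orm3 and Hp in TKO against WT on HFD kept their direction and their side of the threshold.

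On normal diet none of the 7 tested genes was called between TKO and WT by limma, where 5.70% of all tested genes were called (2.16% higher and 3.54% lower, or 3.19% and 2.72% with TMM scaling). None had an unadjusted p below 0.05 in limma or edgeR, and 1 (Serpina3n) had in DESeq2, which called none either. Hp separated by library but was not called. It read 2102, 1964 and 2102 CPM in ND_TKO, all below the ND_WT range (2460 to 2870 CPM), with a log2 change of -0.39 (interval -0.87 to 0.10, adjusted p = 0.33). It was the only one of the 7 whose groups did not overlap, against 23.8% of all genes. Serpina3n read 749, 573 and 607 CPM in ND_TKO (log2 change 0.43, interval -0.01 to 0.86, adjusted p = 0.23). The orosomucoids were at similar levels in both genotypes: Orm1 read 338, 191 and 215 CPM in ND_TKO, Orm2 15.0, 7.65 and 8.67 CPM, and Orm3 39.7, 19.9 and 26.4 CPM. Their intervals were -0.61 to 0.46 for Orm1, -0.72 to 0.51 for Orm2 and -0.95 to 0.60 for Orm3. Saa3 read 9.74, 5.14 and 5.82 CPM in ND_TKO (interval -1.36 to 0.97), and Lcn2 3.18, 18.6 and 6.67 CPM (interval -1.50 to 1.04). Such intervals leave room for changes of considerable size in Saa3 and Lcn2, whose libraries scattered widely.

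The interaction tests whether the TKO effect differed between the diets, and it was called for 4 of the 7 genes, 3 higher and 1 lower (28.7% of all tested genes, 9.94% higher and 18.8% lower). The TKO effect was larger on HFD than on ND by 4.53 for Orm3 (SE 0.50, adjusted p = 6.7e-05), by 1.56 for Orm1 (SE 0.35, adjusted p = 0.0057) and by 1.54 for Orm2 (SE 0.40, adjusted p = 0.013). For Hp it was lower on HFD, with a difference of -1.09 (SE 0.31, adjusted p = 0.022). The Hp call was lost with edgeR (adjusted p = 0.066), without the level filter (0.055), and without ND_WT replicate 1 (0.052), HFD_WT replicate 1 (0.054) or HFD_TKO replicate 3 (0.057). For Saa3 (-0.87, adjusted p = 0.43), Lcn2 (-1.39, adjusted p = 0.24) and Serpina3n (-0.20, adjusted p = 0.65) a difference between the diets was not detected. Without HFD_TKO replicate 1 the Saa3 difference was -1.54 (adjusted p = 0.064) and that of Serpina3n -0.43 (adjusted p = 0.19).

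Within the TKO libraries, high-fat feeding raised Orm2 and, at the edge of the threshold, Saa3, which is 2 of 7 when 22.1% of all tested genes were called (16.2% higher and 5.90% lower, or 9.76% and 8.93% with TMM scaling). The groups did not overlap in 3 of the 7, against 39.4% of all genes. Orm2 rose from 10.5 ± 4.01 to 21.9 ± 5.32 CPM (log2 change 1.03, SE 0.28, adjusted p = 0.024). That call was lost with edgeR (adjusted p = 0.051) and without ND_TKO replicate 2 (0.082) or 3 (0.089) or HFD_TKO replicate 1 (0.084) or 3 (0.056). Saa3 went from 6.90 ± 2.48 to 28.5 ± 25.6 CPM (log2 change 1.61, SE 0.53, adjusted p = 0.0497). Its mean in HFD_TKO was carried by replicate 1, without which the log2 change was 0.94 (adjusted p = 0.16). The call was also lost with TMM scaling (adjusted p = 0.072) and with the replicate number as a block over all groups (0.065), while a block over the TKO libraries alone, a fit chosen after seeing the data, gave 0.0037. It was lost when any 1 library was left out other than ND_WT replicate 1, ND_WT replicate 3 and HFD_TKO replicate 2. Orm1 went from 248 ± 78.9 to 407 ± 83.3 CPM with an adjusted p of 0.0504 (log2 change 0.74, interval 0.20 to 1.27). With the replicate number as a block its adjusted p was 0.037, and 0.0013 with the block over the TKO libraries alone. It also fell below 0.05 without ND_TKO replicate 1 (log2 change 0.98, adjusted p = 0.016), ND_WT replicate 2 (0.034) or ND_WT replicate 3 (0.018). Hp (-0.02, interval -0.51 to 0.47), Orm3 (0.19, interval -0.58 to 0.96), Lcn2 (-0.09, interval -1.36 to 1.18) and Serpina3n (0.04, interval -0.39 to 0.48) did not pass. Without HFD_TKO replicate 1 they did not pass either, at -0.35 for Hp (adjusted p = 0.088), 0.55 for Orm3 (0.28), 0.064 for Lcn2 (0.96) and -0.19 for Serpina3n (0.50).

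Set against lean wild-type fat, 1 of the 7 genes was called in HFD_TKO (35.1% of all tested genes), and the groups did not overlap in 2 of the 7 (44.6% of all genes). Orm2 was higher by 0.93 (SE 0.28, adjusted p = 0.025), a call lost without ND_WT replicate 1 (adjusted p = 0.064) or 2 (0.10), or without HFD_TKO replicate 1 (0.094) or 3 (0.052). The Orm3 means were 33.5 CPM in both groups, with an interval of -0.76 to 0.79 on the log2 scale (log2 change 0.014, and 0.38 without HFD_TKO replicate 1, adjusted p = 0.43). Hp had a log2 change of -0.41 (adjusted p = 0.18), and without HFD_TKO replicate 1 it was -0.73 (adjusted p = 0.0028). Saa3 stood at 1.41 (adjusted p = 0.058), and at 1.64 without ND_WT replicate 3 (adjusted p = 0.046) and 1.82 without HFD_TKO replicate 2 (adjusted p = 0.030), but at 0.74 without HFD_TKO replicate 1 (adjusted p = 0.22). Orm1 stood at 0.66 (adjusted p = 0.054), and at 0.92 without ND_WT replicate 3 (adjusted p = 0.0066), while without ND_TKO replicate 1 its adjusted p was 0.031. Serpina3n stood at 0.47 (adjusted p = 0.085), and at 0.67 without ND_WT replicate 3 (adjusted p = 0.015) and 0.61 without HFD_TKO replicate 2 (adjusted p = 0.0498), but at 0.24 without HFD_TKO replicate 1 (adjusted p = 0.32).

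The orosomucoids differed from each other in how far they moved, which shows in the composition of their summed signal. The ratio of Orm1 to Orm2 CPM lay between 17.5 and 26.3 in all 12 libraries. It was 21.8 to 26.3 in ND_WT and 17.7 to 22.1 in HFD_WT. It was 22.5 to 25.0 in ND_TKO and 17.5 to 20.6 in HFD_TKO, so that the TKO groups did not overlap. As 22.7% of the 50-base windows of Orm2 also occurred in another gene, Orm2 may hold reads of Orm1. The part of such reads in this ratio was not tested. Orm3 moved much further. It made up 9.27% to 11.7% of orosomucoid CPM in ND_WT and 9.09% to 10.5% in ND_TKO, and 0.338% to 0.483% in HFD_WT. In HFD_TKO its share was 3.39%, 9.81% and 9.72%. Replicate 1 of HFD_TKO was thus between the HFD_WT range and that of the lean groups, and the other HFD_TKO libraries were within the lean range. The ratio of Orm1 to Orm3 was 7.25 to 9.42 in ND_WT and 197 to 280 in HFD_WT, with no overlap (exact two-sided permutation p = 0.1 on log2 ratios, the smallest that 3 against 3 libraries allow). In HFD_TKO it was 8.77 to 27.0, again without overlap with HFD_WT (exact two-sided permutation p = 0.1). ND_TKO, at 8.17 to 9.62, overlapped ND_WT (exact permutation p = 0.4) and HFD_TKO (exact permutation p = 0.5). Any reads of Orm1 or Orm2 assigned to Orm3 would weigh most in HFD_WT, where Orm3 had the fewest.

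**Figure D3:**
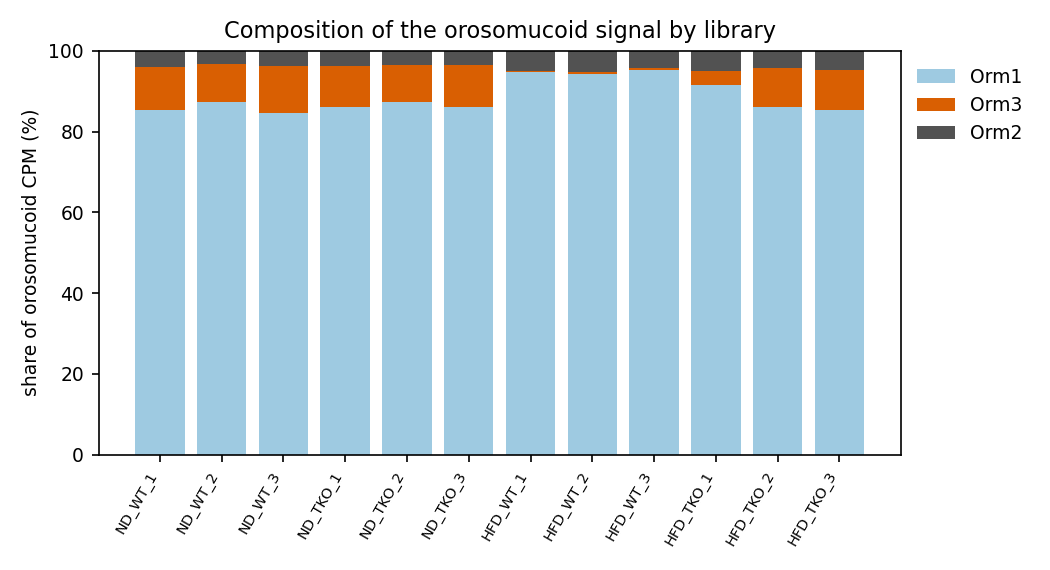
Share of Orm1, Orm3 and Orm2 in the summed orosomucoid CPM of each library, as stacked bars from 0 to 100%. The Orm3 segment is under 0.5% in the 3 HFD_WT libraries, 3.39% in HFD_TKO replicate 1 and 9.09% to 11.7% in the other 8 libraries.

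The genes whose profile over the 12 libraries lay closest to each of the 7 were found by the root mean square difference of mean-centred log2(CPM + 1), where 0 is an identical profile. This measure favours genes with little variation, so it is a description only. For Orm1 the closest was Orm2 (0.176), followed by Tlcd2 (0.180) and Cd209a (0.205), against a spread of Orm1 itself of 0.601. Orm1 and Orm2 may hold some of each other's reads, and the part of this in their likeness was not tested. For Orm3, with a spread of 1.91, the closest were Thrsp (0.676), a gene of lipogenic fat and liver, the adrenergic receptor gene Adrb3 (0.697) and Gsta4 (0.771), a glutathione transferase, and its own neighbour Orm1 lay at 1.49. Hp (spread 0.649) was closest to Ccrl2 (0.211), Nek2 (0.233) and Selp (0.236). Saa3 (spread 1.26) was closest to Gask1b (0.436), the chemokine gene Ccl8 (0.450) and Dhcr7 (0.473). Lcn2 (spread 0.957) was closest to Kcnj16 (0.270), Cfi (0.383) and Fbp2 (0.409), and Serpina3n (spread 0.297) to Pgam1 (0.149), Gm14023 (0.154) and Sdhaf3 (0.156). Apart from Orm1 and Orm2, none of the 7 tested genes was among the 3 closest genes of another in the lists given here.

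The lists that follow are read against the shares of all tested genes. With diet in WT 37.8% of these were called higher and 20.3% lower (29.2% and 28.2% with TMM scaling), in TKO against WT on HFD 15.2% and 31.6% (22.7% and 24.7%), on ND 2.16% and 3.54%, and with diet in TKO 16.2% and 5.90% (9.76% and 8.93%). For the cytokines that induce acute-phase genes and their receptors, 19 genes were tested. Of these, 11 rose and 2 fell with diet in WT (8 and 3 with TMM scaling), with a median log2 change of 0.49 against 0.13 over all genes. In TKO against WT on HFD, 1 was higher and 9 lower (2 and 9 with TMM scaling; median -0.29 against -0.10). Tnfrsf1b, the second tumour necrosis factor receptor, rose by 2.14 with diet in WT (adjusted p = 1.8e-08) and was lower by 1.99 in HFD_TKO (log2 change -1.99, adjusted p = 7.0e-08). Osmr, the oncostatin M receptor, rose by 1.38 in WT (adjusted p = 1.3e-06) and by 0.78 in TKO (adjusted p = 0.0017). Tnf itself was low, at 0.494 ± 0.182 CPM in ND_WT, 2.50 ± 0.772 in HFD_WT and 0.539 ± 0.299 in HFD_TKO (log2 changes 1.21 and -1.18, adjusted p = 1.4e-04 and 2.5e-04). Il6 did not pass the filter. Its highest library held 1.37 CPM and its mean was 0.735 CPM in HFD_WT. Il1b had at most 0.742 CPM in any library and was not called in either comparison. On ND, 0 of the 19 were higher and 1 lower in TKO, and 4 rose and 0 fell with diet in TKO (2 and 1 with TMM scaling, and 2 to 6 and 0 with a library left out), shares close to those of all genes.

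Of 26 tested signal transducers and transcription factors of these pathways, 18 rose and 2 fell with diet in WT (median 0.63, and 15 and 3 with TMM scaling), when 37.8% of all genes rose and 20.3% fell. Fed HFD, TKO had 2 of them higher and 15 lower (median -0.31, and 3 and 11 with TMM scaling), against 15.2% and 31.6% of all genes. Socs3, a feedback inhibitor of STAT3 signalling, went from 8.01 ± 1.28 CPM in ND_WT to 44.3 ± 20.9 in HFD_WT and was at 11.0 ± 4.62 in HFD_TKO (log2 changes 2.22 and -1.86, adjusted p = 2.0e-04 and 0.0010). Stat3 rose by 0.66 in WT and changed by -0.50 in TKO against WT on HFD (adjusted p = 1.3e-05 and 1.8e-04). The NF-kB subunit gene Rel rose by 1.34 with diet in WT and changed by -1.45 in HFD_TKO (both adjusted p = 1.1e-06). The C/EBP genes were not alike. Cebpb rose with diet in WT (1.04, adjusted p = 1.0e-04) and in TKO (1.18, adjusted p = 0.0012), and TKO against WT on HFD gave 0.15 (adjusted p = 0.44). Cebpd rose by 1.90 with diet in WT (adjusted p = 4.7e-04), from 10.7 ± 6.91 to 39.2 ± 8.57 CPM. In TKO its level was 29.7 ± 6.40 CPM on ND and 36.1 ± 9.85 CPM on HFD. Cebpa, the main C/EBP gene of mature adipocytes, named here after its values were seen, fell from 721 ± 73.7 CPM in ND_WT to 318 ± 8.26 in HFD_WT and was at 524 ± 25.0 in HFD_TKO (log2 changes -1.17 and 0.72, adjusted p = 3.3e-06 and 2.5e-04). Among the 26, 1 was higher and 0 lower in TKO on ND, against 2.16% and 3.54% of all genes. With diet in TKO 8 rose and 0 fell (7 and 1 with TMM scaling), against 16.2% and 5.90% of all genes.

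Of 36 listed genes for other acute-phase proteins 27 were tested. With diet in WT 13 rose and 6 fell (13 and 7 with TMM scaling; median 0.85), and 3 were higher and 9 lower in TKO on HFD (4 and 9 with TMM scaling; median -0.45). The shares called lower were close to the 20.3% and 31.6% of all genes. Il1rn, the interleukin 1 receptor antagonist, rose from 2.22 ± 1.34 to 49.0 ± 12.2 CPM with diet in WT (log2 change 4.01, adjusted p = 4.7e-06), and HFD_TKO held 8.82 ± 3.87 CPM (log2 change -2.40, adjusted p = 4.1e-04). Genes of the Serpina3 cluster diverged. Serpina3g (2.54) and Serpina3f (2.40) rose in WT and Serpina3n did not pass. Serpina3k fell from widely scattered values of 21.4, 61.7 and 3.06 CPM in ND_WT (log2 change -2.87, adjusted p = 0.0063), a change that was -1.97 without ND_WT replicate 2 and -3.94 without replicate 3. Hpx, which encodes the haem-binding hemopexin, changed by -1.89 in TKO on HFD (adjusted p = 1.5e-04), next to the fall of Hp. Its level was far below that of Hp, at 4.98 ± 0.824 CPM in HFD_WT. In HFD_TKO it read 1.86, 0.184 and 0.229 CPM, near the limit of 3 reads in replicates 2 and 3. C3, the central complement component, named after its values were seen, rose by 1.09 with diet in WT and changed by -1.67 in TKO on HFD (adjusted p = 1.9e-04 and 1.0e-05). On ND, 4 of the 27 were higher and 2 lower in TKO (2.16% and 3.54% of all genes; 1 to 6 and 1 to 3 with a library left out). Among them Lrg1, a leucine-rich plasma glycoprotein, stood at 49.8 ± 8.83 CPM in ND_TKO against 183 ± 18.8 in ND_WT (log2 change -1.87, adjusted p = 0.0015). It was lower in TKO on HFD too (log2 change -1.83, adjusted p = 9.1e-05). Within TKO, 3 rose and 5 fell with diet (16.2% and 5.90% of all genes; 1 to 4 and 2 to 7 with a library left out).

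Receptors and partners of the 9 proteins included 25 tested genes, of which 11 rose and 4 fell with diet in WT (11 and 6 with TMM scaling; median 0.24), close to the 37.8% and 20.3% of all genes. Fed HFD, TKO had 2 of them higher and 11 lower (the same numbers with TMM scaling; median -0.39), when 15.2% and 31.6% of all genes were. Fed ND it had 0 higher and 3 lower (0 to 5 lower with a library left out), when 3.54% of all genes were lower. Tlr2 (-2.38, adjusted p = 6.9e-08), a reported receptor of serum amyloid A, and the co-receptor Cd14 (-2.12, adjusted p = 5.0e-06) were lower in TKO on HFD. P2rx7, an ATP-gated channel, rose by 2.34 in WT and changed by -1.67 in TKO on HFD (adjusted p = 1.1e-07 and 2.8e-06). The 2 genes of the list that were higher in TKO on HFD were Cd163 and Slc22a17. Cd163, the macrophage receptor of haptoglobin bound to haemoglobin, was higher in HFD_TKO (124 ± 15.5 against 59.7 ± 3.74 CPM, log2 change 1.03, adjusted p = 0.0028). Slc22a17, a lipocalin 2 receptor, fell with diet in WT (-1.14, adjusted p = 9.7e-04) and was higher in TKO on HFD (1.09, adjusted p = 0.0019). Hmox1, which breaks down haem, rose from 47.5 ± 25.2 to 206 ± 15.1 CPM with diet in WT (log2 change 2.21, adjusted p = 7.0e-04).

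**Figure D4:**
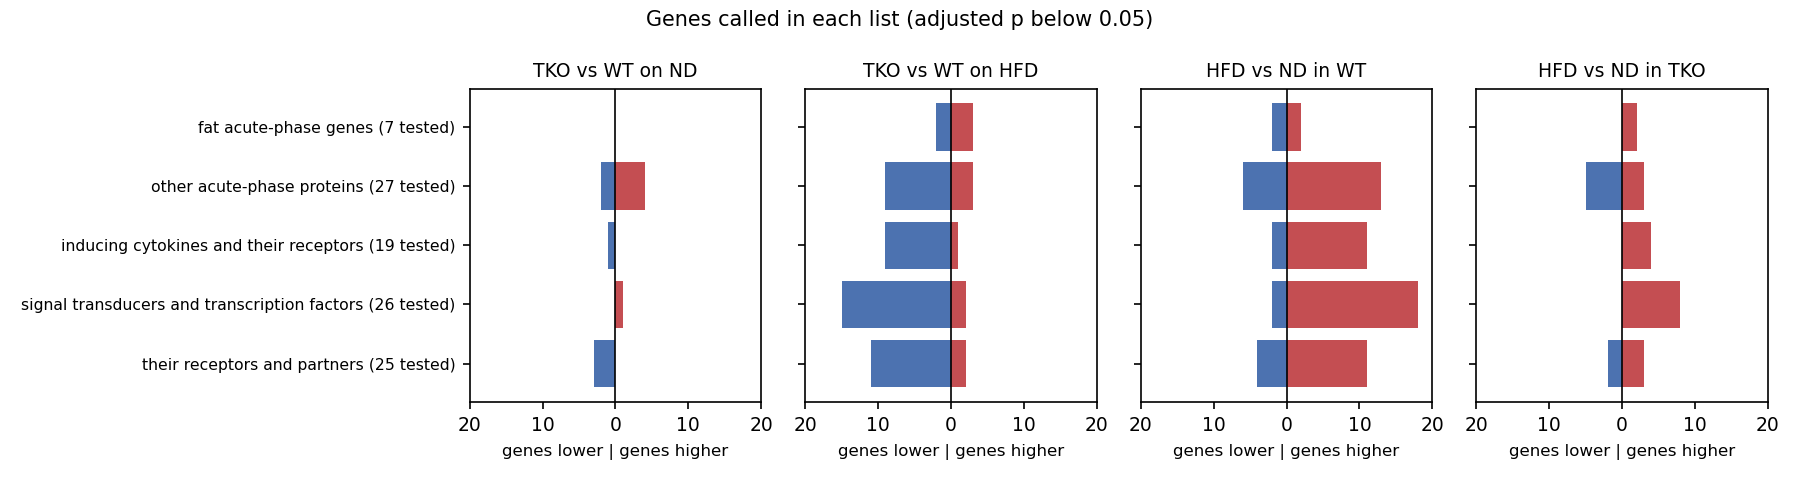
Number of genes called higher (right, red) and lower (left, blue) in 4 comparisons, for the 7 tested fat acute-phase genes and 4 lists of pathway genes. With diet in WT 18 of 26 signal transducers rose, and in TKO against WT on HFD 15 of the 26 fell.

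Markers of several cell types moved with the same comparisons. Summed adipocyte markers (12 genes) spanned 58525 to 73632 CPM over the ND_WT libraries, 67025 to 75760 over ND_TKO, 20607 to 22001 over HFD_WT and 46428 to 57364 over HFD_TKO. With diet in WT 1 of the 12 rose and 11 fell, and 10 were higher and 0 lower in TKO on HFD. The 13 macrophage markers other than Lpl, which adipocytes express strongly and which was set aside after its values were seen, spanned 1001 to 1414 CPM over ND_WT, 810 to 1206 over ND_TKO, 7716 to 9218 over HFD_WT and 1504 to 1815 over HFD_TKO. Of the 14 with Lpl, 11 rose and 1 fell with diet in WT (11 and 3 with TMM scaling), and 2 were higher and 11 lower in TKO on HFD. In HFD_WT, where Orm1 and Orm3 were low and Hp and Saa3 high, adipocyte markers were thus low and macrophage markers high, and the part of cell composition in the changes was not tested. In whole tissue, fewer cells of a type and less RNA per cell cannot be told apart. Neutrophils store lipocalin 2 and haptoglobin. Their markers summed to 6.20 to 8.95 CPM over ND_WT, 4.62 to 5.71 over ND_TKO, 28.1 to 31.8 over HFD_WT and 6.07 to 12.7 over HFD_TKO, and of the 5 tested 3 rose and 1 fell with diet in WT, and 0 were higher and 3 lower in TKO on HFD. Of the 13 listed genes, Ly6g (1 read in all 12 libraries), Mpo (at most 0.232 CPM) and Ngp (at most 0.0466 CPM) were at or near 0. Means in ND_WT and HFD_WT were 1.61 and 14.7 CPM for S100a8, 2.76 and 10.4 CPM for Csf3r and 0.155 and 2.68 CPM for Il1r2. Lower means in HFD_WT were seen for Elane (1.63 and 0.222 CPM) and S100a9 (0.759 and 0.464 CPM). Of 10 markers of T, NK and B cells, 8 rose with diet in WT and 10 were lower in TKO on HFD. Stromal and progenitor markers (10 genes) summed to 3139 to 3605 CPM over ND_WT, 3260 to 3405 over ND_TKO, 6286 to 8283 over HFD_WT and 4068 to 4799 over HFD_TKO, with 8 higher and 0 lower for diet in WT and 0 higher and 7 lower in TKO on HFD. Mesothelium markers summed to 283 to 404 CPM over ND_WT, 148 to 270 over ND_TKO, 111 to 132 over HFD_WT and 43.8 to 220 over HFD_TKO. Of 9 tested, 0 rose and 6 fell with diet in WT, and 0 were called in TKO on HFD, where 4 were higher without HFD_TKO replicate 1. Hepatocytes are the classical source of acute-phase proteins, and their markers summed to 29.7 to 43.7 CPM over ND_WT, 19.8 to 25.8 over ND_TKO, 14.4 to 16.6 over HFD_WT and 21.4 to 24.4 over HFD_TKO: Apoa1 had at most 0.223 CPM, Ttr at most 0.276 CPM and Fgb 1 read, and Alb stood at 22.7 ± 8.18 CPM in ND_WT and 1.10 ± 0.314 in HFD_WT. Apoa2 had group means of 4.35 to 4.84 CPM, and Serpina1a of 5.38 CPM (HFD_WT) to 9.03 CPM (HFD_TKO). Of the 5 tested hepatocyte markers 1 rose and 2 fell with diet in WT, and 2 were higher and 1 lower in TKO on HFD. The marker that rose was Ahsg, which encodes the liver glycoprotein fetuin A, from a mean of 0.371 CPM in ND_WT to 3.67 CPM in HFD_WT. Epididymal epithelium markers summed to at most 3.99 CPM in any library, with 5 of them at 0.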

How the data were processed

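The deposited table held CPM per gene and library, per the file headers, and, per the submitters' processing notes, the tools were STAR 2.7.3a, featureCounts 2.0.0 and DESeq2 with mm10. Annotation, strand use and the handling of multi-mapped reads are not given in the sources used here. Each deposited CPM value, less an offset worth 0.01 read, was a whole number of reads (100% of values, tolerance 0.05 read), and these read counts served as an alternative. Rows without a symbol (3) held 0.0313% to 0.0679% of reads and were left out.

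The main test was limma 3.58.1 (R 4.3.3) with a trend on log2(CPM + 1), a mean per group over all 12 libraries and 8 residual degrees of freedom. Genes with at least 0.5 CPM in at least 3 libraries were tested, with Benjamini-Hochberg adjustment over all of them and calls at 0.05. TMM scaling moved the median over all tested genes by 0.11 (TKO against WT on HFD) and -0.14 (HFD against ND in WT). Alternatives were TMM scaling, pseudocounts of 0.5 and 5, no filter, edgeR 4.0.16 and DESeq2 1.42.0 on the recovered reads, separate fits, a replicate block and leaving out each library. The scripts were tested on simulated data. Replicates differed by more than sampling noise (chi-square per degree of freedom 6.43 to 76.0). They are separate samples per the labels' protocols, and nothing says how they were housed or processed.

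Deviations of same-numbered ND_TKO and HFD_TKO libraries correlated at 0.12 to 0.56 in the 3 pairs. Differently numbered libraries reached similar values, such as 0.56 for ND_WT replicate 1 and HFD_TKO replicate 2. The correlations therefore do not show whether the numbers pair animals, and the labels say nothing of it. The main test used no block. In every other pair of groups the lowest same-numbered correlation was negative. The 9 genes and all lists were chosen with earlier results of these data known. Beside the 9, up to 4 called genes per list and comparison with the largest change were named, with a short panel of cytokines, signalling genes and receptors. Gene positions are from GENCODE M21 and promoters from RefSeq (GRCm38.p6). Protein sequences were not used here.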

Additional observations from a re-analysis of the deposited data

Results flagged for a closer look

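In 4 of the 7 tested genes the TKO effect on HFD differed from the TKO effect on ND by the interaction test in limma. The test called 28.7% of all tested genes (9.94% higher and 18.8% lower). The differences on the log2 scale were 4.53 for Orm3, 1.56 for Orm1, 1.54 for Orm2 and -1.09 for Hp. The Hp call was lost with edgeR, without the level filter and when certain single libraries were left out.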

How the results depend on the processing

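Of 840 values of the 7 genes under other settings, 747 kept their direction and their side of the threshold, 39 lost a call, 23 gained one and 31 changed sign, the last only where no call was made. The replicate block, the separate fits and leaving out a library of a group not compared keep the log2 change itself. For such values the direction was fixed beforehand and only the adjusted p could move, so the 747 are not all separate checks. Genes called in TKO against WT on ND numbered 889, 1400 with DESeq2, 280 with only the groups compared fitted and 350 to 1853 with a library left out (350, 506 and 1853 when ND_WT replicate 1, 2 or 3 was omitted, and 520 or 435 when ND_TKO replicate 1 or 3 was). HFD_TKO against ND_WT gave 5472 genes, 3596 with separate fits and 3709 to 6418 with a library left out. HFD against ND in TKO gave 3446 genes, and 1716 to 4296 with a library left out (1716 without ND_TKO replicate 3 and 2220 without HFD_TKO replicate 3). Of the 7 genes, 2 were called in HFD against ND in TKO, and 1 with TMM scaling, a pseudocount of 5, no filter, edgeR or separate fits, 3 with a pseudocount of 0.5 or the block over the TKO groups only (which called 4153 genes), and 0 to 3 with a library left out. In HFD_TKO against ND_WT 1 was called, 2 with edgeR, 3 with DESeq2, 0 with separate fits, 2 with the replicate block and 0 to 4 with a library left out. The cause was not tested.

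Signs changed as follows. In HFD_TKO against ND_WT, Orm3 was -0.010 with TMM scaling, -0.034 with edgeR and -0.033 with DESeq2 (-0.30 to 0.38 with a library left out), and Lcn2 was -0.81 to 0.19 with a library left out. In HFD against ND in TKO, Hp was 0.0029 with DESeq2 (-0.35 to 0.21), Serpina3n was -0.039 with TMM scaling and -0.0026 with edgeR (-0.19 to 0.18), Orm3 was -0.036 to 0.55 and Lcn2 was -0.61 to 0.51. In TKO against WT on ND, the ranges with a library left out were -0.65 to 0.034 for Saa3, -0.32 to 0.19 for Orm1, -0.38 to 0.17 for Orm2, -0.49 to 0.16 for Orm3 and -0.83 to 0.29 for Lcn2. The replicate block over all groups also gave Lcn2 an adjusted p of 0.051 in TKO against WT on HFD and Orm1 one of 0.038 in HFD_TKO against ND_WT, and beside these and the values within TKO it changed no other call of the 7 genes. Depth limits Saa1, Saa2 and, in HFD_WT, Orm3.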
